A study of Mus musculus with 9 samples.

Results

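Genes of B-cell receptor signalling and its co-receptors were compared between 5 splenic lymphomas of Sca1-MALT1 transgenic mice and 4 spleens of healthy wild-type mice. The set was a list of 37 gene symbols, and a probe set belonged to it when its platform symbol was exactly 1 of them. All 37 genes were measured, by 97 probe sets, among 18193 genes on the array. For the view by gene, each gene was read from its brightest probe set, judged by the mean of the 9 arrays, and the other probe sets are given where their log2 differences had the opposite sign. Each array held RNA of 1 frozen spleen sample. Sca1-MALT1 names a transgene in which the promoter of Sca1 (Ly6a), active in blood stem and progenitor cells, drives MALT1, a protease and scaffold that works below the antigen receptors. No treatment is named for either group, and the sources used here give neither age nor strain. The lymphoma tissue holds the host's own spleen cells besides the tumour cells, so the values describe whole tissue. The labels number the samples without naming separate animals, so p-values measure only the spread between these samples.

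The B-cell receptor is a membrane antibody joined to the signalling chains CD79A and CD79B. When antigen binds, Src-family kinases such as BLK phosphorylate these chains, SYK docks on them, and the adaptor BLNK gathers BTK and phospholipase C gamma 2. The lipase yields calcium, which activates NFAT, and diacylglycerol, which activates protein kinase C beta and, through BCL10 and MALT1, NF-kB. Inhibitory receptors such as CD22, CD72 and Siglec-G recruit the phosphatase SHP-1 (Ptpn6), and SHIP-1 (Inpp5d) removes the lipid that PI3-kinases make. In the spleen the pathway sustains follicular and marginal zone B cells. Many of these proteins, among them SYK, BTK, SHP-1 and SHIP-1, also work in macrophages and other blood cells.

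No member passed limma's test over all genes (0 of 37 called at a Benjamini-Hochberg adjusted p under 0.05, where 0.715% of all genes were called), and the smallest adjusted p was 0.0864, for Btk. The members nevertheless leaned one way: 31 had a lower mean in lymphoma and 6 a higher one, where 49.7% of all genes were lower and 50.3% higher. Their median log2 difference, lymphoma minus wild-type, was -0.28, against 0.00117 over all genes. At an unadjusted p under 0.05, 9 members were lower by limma's test (24.3% of them, against 8.0% of all genes) and 2 higher (5.4%, against 6.69%). The groups did not overlap for 7 members, all lower in lymphoma (18.9%, against 4.04% of all genes), and for none with lymphoma higher (all genes: 3.29%). Without wild-type spleen 2 the 9 lower members became 2 (5.4%, against 5.06% of all genes in that fit). The 7 without overlap were Btk, Cd22, Blnk, Prkcb, Ikbkb, Vav2 and Ralgps2. In bulk tissue, fewer cells of a type and less RNA per cell cannot be told apart.

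**Figure D1:**
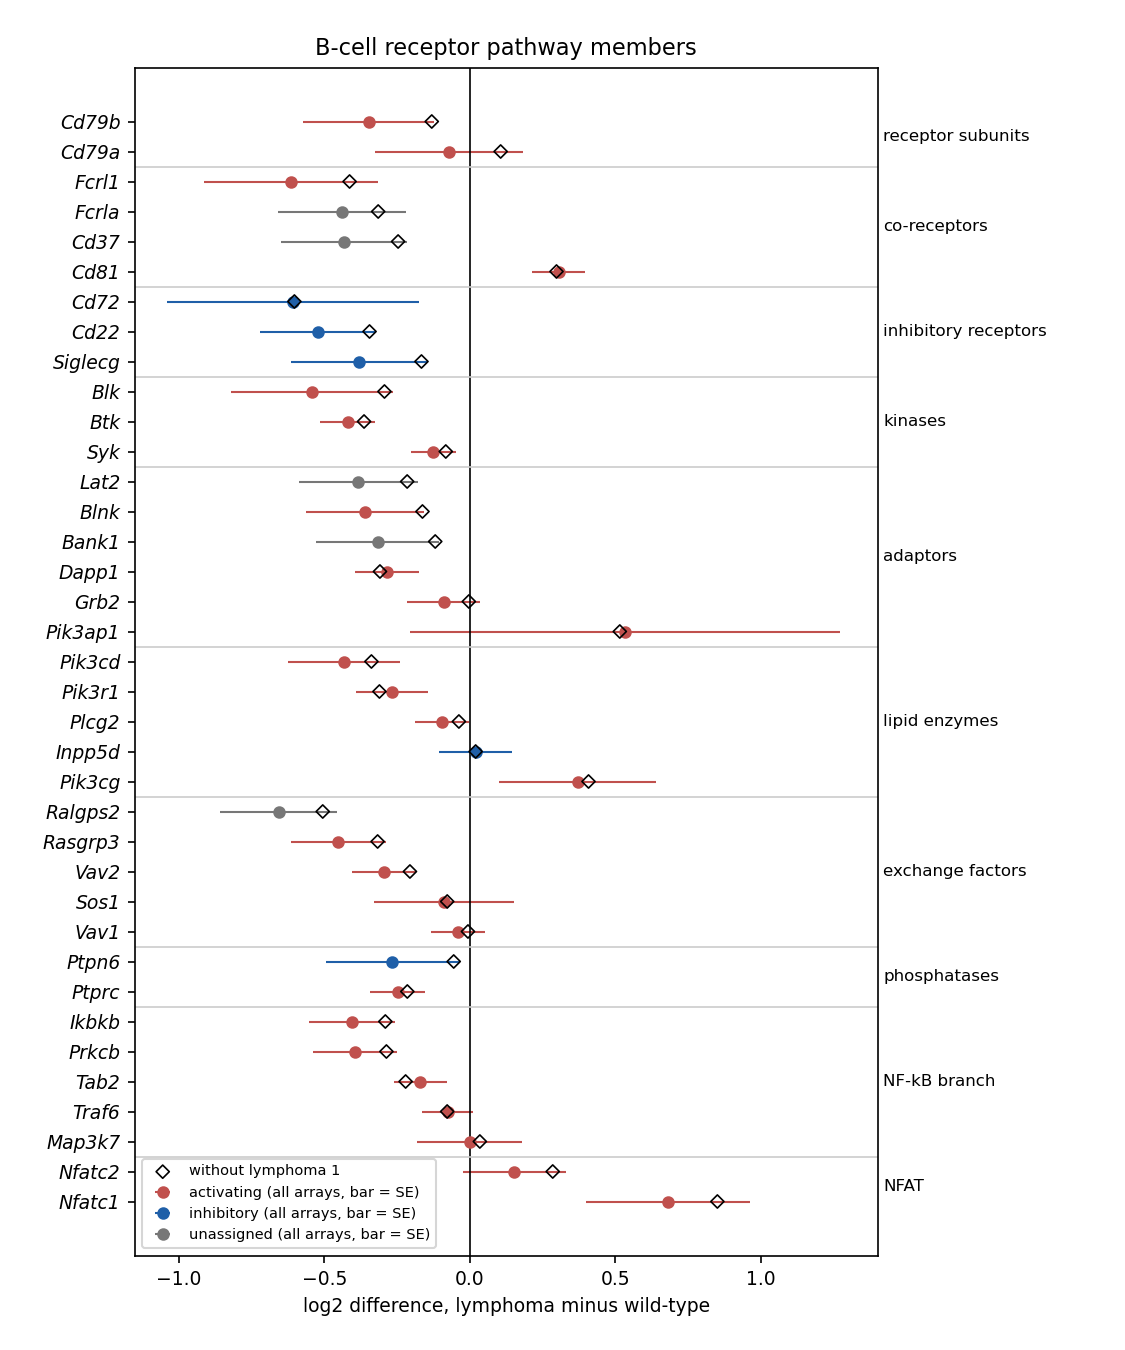
Log2 difference (x axis, lymphoma minus wild-type) of each of the 37 members (y axis), grouped by role; filled points and bars are the limma estimate and its SE from 4 wild-type and 5 lymphoma arrays, and open diamonds leave out lymphoma 1. Points lie left of 0 for 31 members, and Nfatc1, Pik3ap1, Pik3cg and Cd81 stand furthest to the right.

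Lymphoma 1 held the lowest of the 9 values for 23 of the 37 members (62.2%, against 21.4% of all genes), and for 10 of the 11 members that are mainly expressed in the B lineage. Relative to the wild-type mean, the median member stood at -0.65, -0.25, -0.047, -0.16 and -0.18 in lymphomas 1 to 5, against -0.034 to 0.059 in the wild-type arrays. Without lymphoma 1 the median log2 difference was -0.17, and 29 members were below 0. Limma then called 0 members (all genes: 0.901%), with 11 lower and 2 higher at an unadjusted p under 0.05 (all genes: 7.53% and 6.91%). Without lymphomas 1 and 2, whose erythroid markers were high, the median was -0.14, with 0 members called (all genes: 3.30%), 10 lower and 3 higher at that level (all genes: 8.82% and 10.1%).

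**Figure D2:**
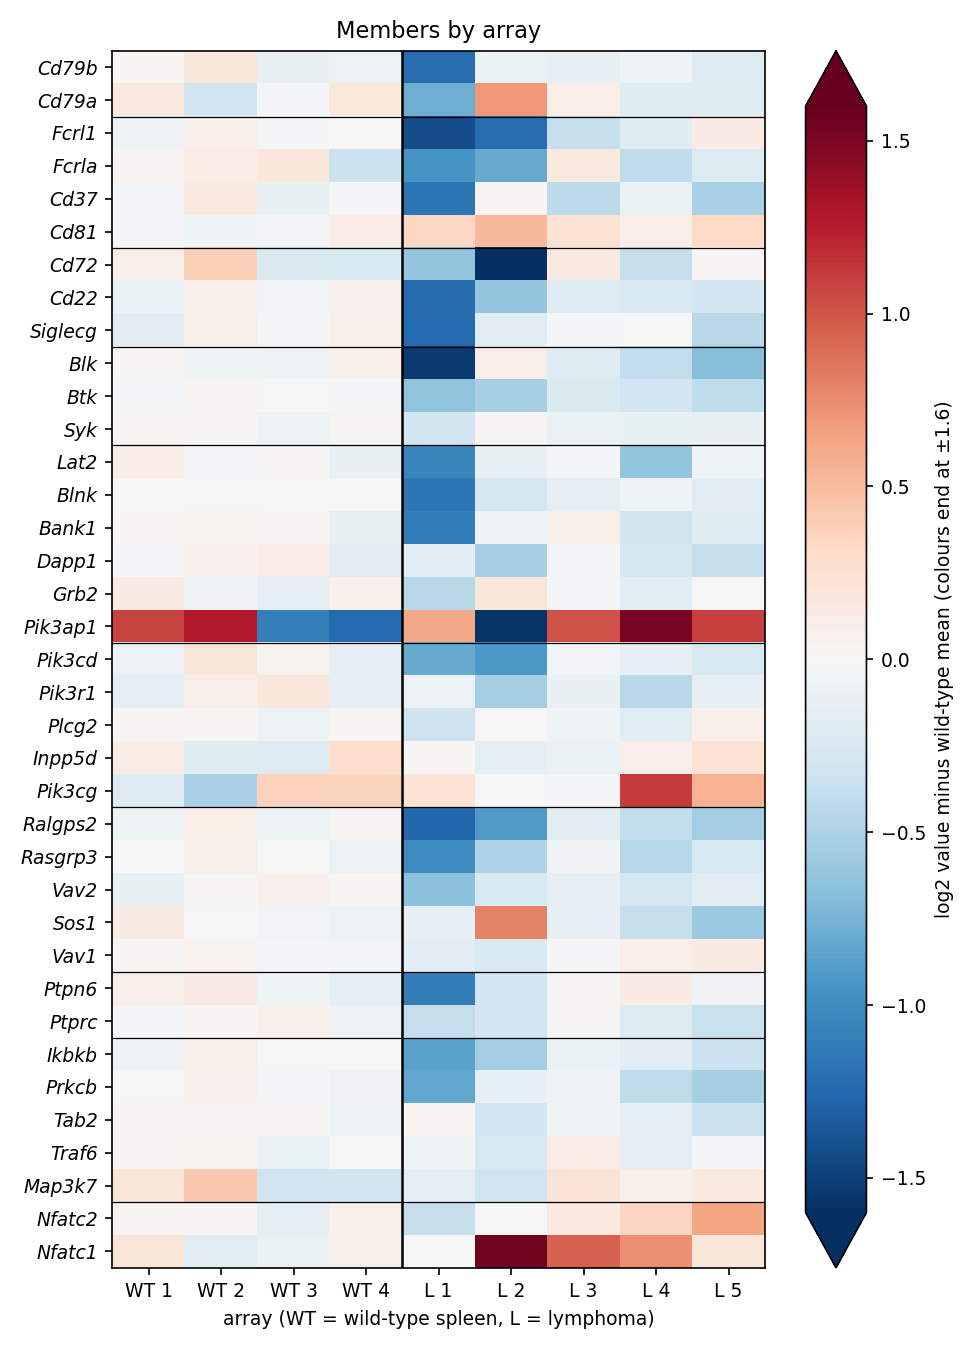
Log2 value minus the wild-type mean (colour) of the 37 members (rows, grouped by role) on the 9 arrays (columns). The column of lymphoma 1 holds the lowest value in 23 rows, Nfatc1 is high in lymphomas 2 to 4, and Pik3ap1 splits both groups.

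Marker lists of cell types were also compared, and not all of them followed the groups. The mean of 7 B-cell markers lay at -1.39 to -0.34 in lymphomas and at -0.10 to 0.11 in wild-type spleens, relative to the wild-type mean, so all 5 lymphomas lay below all 4 wild-type spleens. That separation rested on Fcer2a (log2 difference -1.77) and Cr2 (-1.25), the 2 markers whose groups did not overlap. The mean of the other 5 stood at -0.99, 0.039, -0.22, -0.10 and -0.24 in lymphomas 1 to 5 against -0.10 to 0.11 in wild-type spleens, so lymphoma 2 lay inside the wild-type range. Their log2 differences were -0.57 for Ebf1, -0.51 for Pax5, -0.31 for Spib, -0.22 for Ms4a1 and 0.089 for Pou2af1. Of the 7 markers limma called 0 (all genes: 0.715%), and 3 were lower at an unadjusted p under 0.05 (all genes: 8.0%). Their median log2 difference was -0.51. Macrophage markers were higher, with 7 of 10 called (all genes: 0.715%) and means of 1.14 to 1.82 in lymphomas against -0.21 to 0.085 in wild-type spleens. Erythroid means (8 markers) were 3.76, 3.61, 0.96, -1.02 and 0.27 in lymphomas 1 to 5 against -0.41 to 1.12, and granulocyte means (8 markers) were 6.09, 2.69, 1.67, 0.015 and 2.69 against -0.32 to 0.41. T-cell means (9 markers) were -1.07, -1.38, 0.13, -0.055 and 0.17 in lymphomas 1 to 5 against -0.11 to 0.21. The means of 6 NK-cell markers were 0.24 to 0.80 in lymphomas against -0.026 to 0.063 in wild-type spleens. These markers were uneven, with log2 differences of 1.17 for Gzmb, 0.74 for Eomes and 0.64 for Nkg7. Klre1 (0.15), Ncr1 (0.14) and Prf1 (0.00715) differed little. Means of 7 plasma cell markers were -0.28 to 1.16 in lymphomas against -0.047 to 0.075, with lymphoma 4 lowest. The part of macrophages, granulocytes, T cells, NK cells and plasma cells in the members' values was not tested. With the erythroid mean as a covariate the median member stood at -0.19 with 29 below 0, 0 were called (all genes: 0.715%), and at an unadjusted p under 0.05 Btk and Ralgps2 were lower and Cd81, Pik3cg and Nfatc2 higher (all genes: 6.78% and 7.29%). With the B-cell mean as a covariate the median was 0.089: 25 members were above 0. At an unadjusted p under 0.05 none was then lower and 5 were higher, namely Ptpn6, Nfatc2, Nfatc1, Cd79b and Blnk (all genes: 6.04% and 6.41%), and limma called 0 members and 0.00% of all genes. The groups share no range of that 7-marker mean, so this fit compares them by extrapolation.

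**Figure D3:**
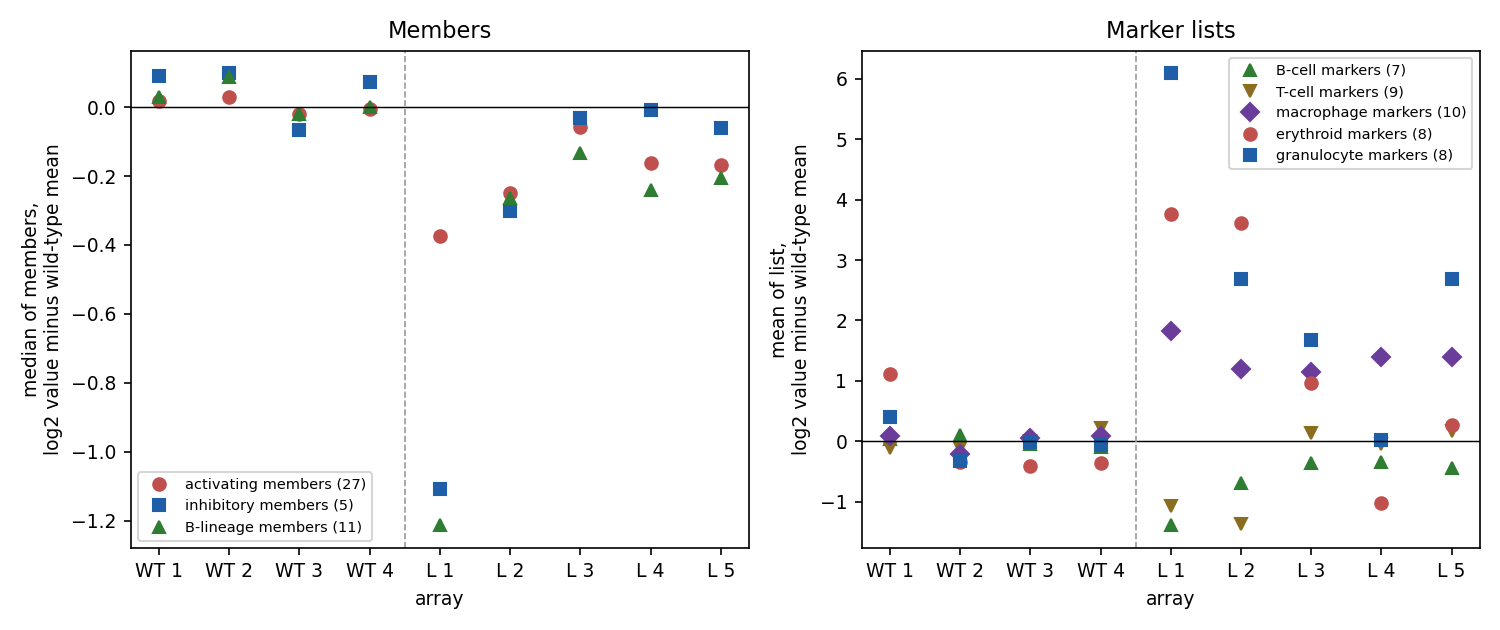
Left, median of the activating, inhibitory and B-lineage members on each array; right, mean of each marker list; both as log2 value minus the wild-type mean (y axes) for the 4 wild-type (WT) and 5 lymphoma (L) arrays (x axes). Lymphoma 1 lies lowest for all 3 sets of members and highest for granulocyte markers, and the B-cell markers of all lymphomas lie below those of the wild-type spleens.

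Neither signalling chain of the receptor passed the test. Levels below are log2 RMA values of 1 probe set in each array, and differences are lymphoma minus wild-type means on that scale. Cd79a stood at 11.38, 10.92, 11.21 and 11.40 in wild-type spleens 1 to 4 and 10.44, 11.92, 11.34, 11.03 and 11.03 in lymphomas 1 to 5 (log2 difference -0.072, SE 0.25, limma adjusted p 0.924). The lymphomas held both the lowest and the highest of the 9 values, so the groups overlapped throughout, and without lymphoma 1 the difference was 0.11. Cd79b stood at 13.49, 13.63, 13.34 and 13.36 in wild-type spleens 1 to 4 and 12.24, 13.35, 13.32, 13.38 and 13.25 in lymphomas 1 to 5 (log2 difference -0.35, SE 0.22, limma adjusted p 0.516). Lymphomas 2 to 5 lay in or just under the wild-type range, and lymphoma 1 lay far below it. Without that array the Cd79b difference was -0.13.

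**Figure D4:**
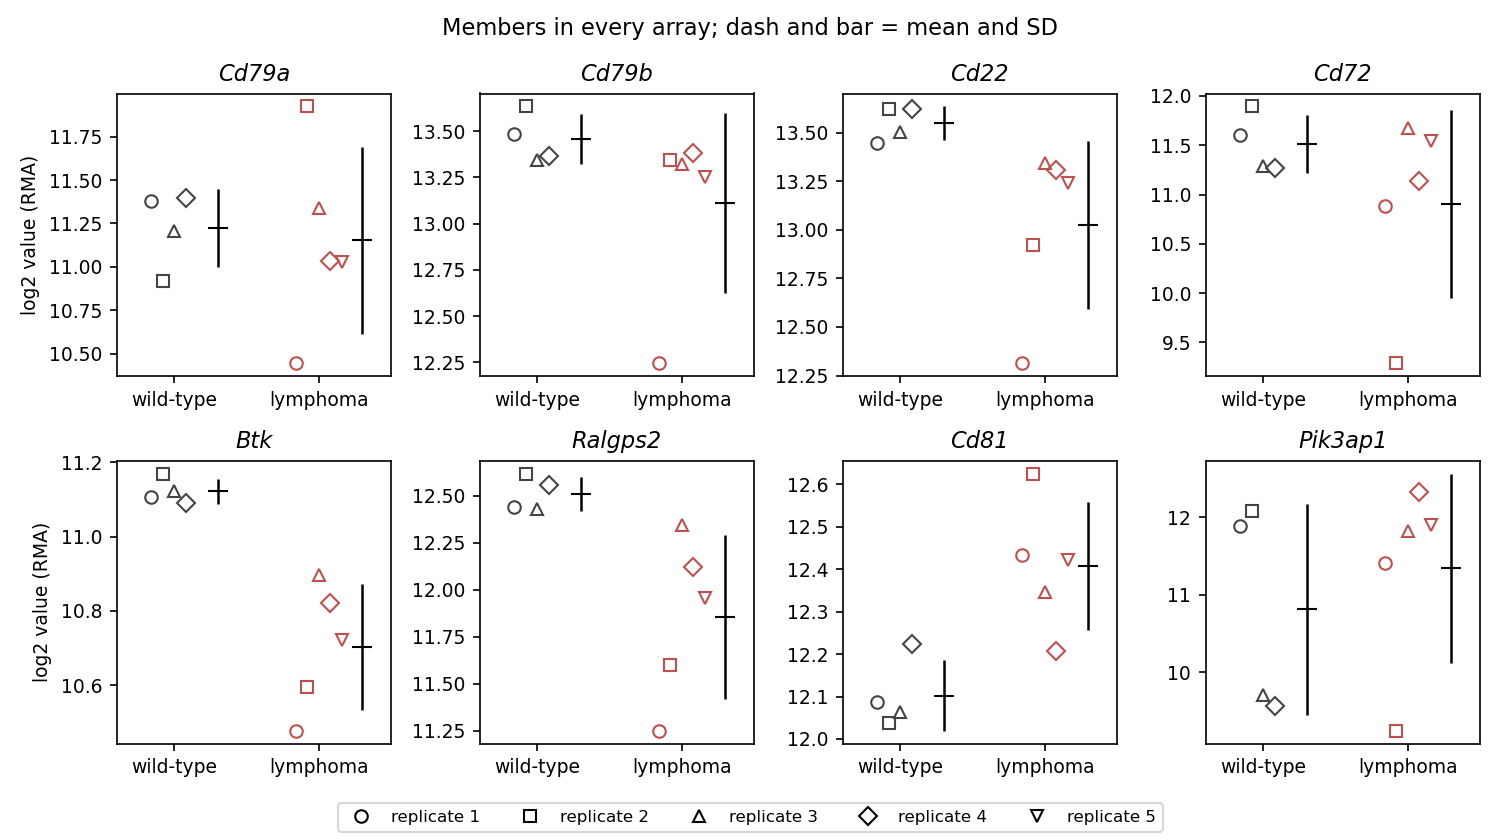
Log2 RMA value (y axis, a separate scale per panel) of 8 members in every array, with symbols for replicate numbers and the mean and SD of each group beside the points (n = 4 wild-type, n = 5 lymphoma). The groups do not overlap for Cd22, Btk and Ralgps2, lymphoma 1 lies lowest for Cd79a, Cd79b, Cd22, Btk and Ralgps2, and Pik3ap1 falls into a high and a low level in both groups.

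Among the 4 co-receptors, Cd81 had a higher mean in lymphoma and Fcrl1, Fcrla and Cd37 lower ones. Cd81, a tetraspanin of the B-cell co-receptor complex, stood at 12.09, 12.04, 12.06 and 12.22 in wild-type spleens 1 to 4 and 12.43, 12.62, 12.35, 12.21 and 12.42 in lymphomas 1 to 5 (log2 difference 0.30, SE 0.092, limma adjusted p 0.178, unadjusted p 0.00823). Lymphoma 4 lay inside the wild-type range and the other 4 lymphomas above it. CD81 is made by many cell types besides B cells. With any 1 array left out its difference stayed between 0.25 and 0.35. Fcrl1, an Fc receptor-like protein of B cells with activating motifs, stood at 11.83, 11.99, 11.89 and 11.90 in wild-type spleens 1 to 4 and 10.48, 10.68, 11.53, 11.71 and 12.04 in lymphomas 1 to 5 (log2 difference -0.61, SE 0.30, limma adjusted p 0.382). Lymphomas 1 and 2 lay more than 1 log2 unit below the wild-type spleens and lymphoma 5 above all of them. Its other probe set, 1425063_at, gave a log2 difference of -0.89 (limma adjusted p 0.348) with lymphoma 5 again the highest of the 9 arrays. Without lymphoma 5 limma called that probe set (-1.26, limma adjusted p 0.0378). The share of all probe sets called in that fit is not given here. Fcrla, a related protein kept inside B cells, stood at 10.78, 10.86, 10.92 and 10.40 in wild-type spleens 1 to 4 and 9.80, 9.94, 10.90, 10.34 and 10.53 in lymphomas 1 to 5 (log2 difference -0.44, SE 0.22, limma adjusted p 0.398), and its other 2 probe sets had log2 differences of -0.16 and -0.069. Cd37, a tetraspanin of mature B cells, stood at 12.61, 12.79, 12.51 and 12.61 in wild-type spleens 1 to 4 and 11.46, 12.68, 12.22, 12.53 and 12.12 in lymphomas 1 to 5 (log2 difference -0.43, SE 0.22, limma adjusted p 0.399). Lymphomas 2 and 4 lay inside the wild-type range on that probe set, and the second one (1419206_at) gave a log2 difference of -0.092 with lymphoma 2 the highest of all arrays.

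The 3 inhibitory receptors were each lower on average. Cd22, a sialic acid receptor that dampens the B-cell receptor, stood at 13.45, 13.62, 13.50 and 13.62 in wild-type spleens 1 to 4 and 12.31, 12.92, 13.34, 13.31 and 13.24 in lymphomas 1 to 5 (log2 difference -0.52, SE 0.20, limma adjusted p 0.268). All 5 lymphomas lay below all 4 wild-type spleens, the nearest by a small margin, and without lymphomas 1 and 2 the difference was -0.25. Its dimmer probe set 1419769_at gave a log2 difference of -0.49. Cd72, a C-type lectin that binds SHP-1, stood at 11.60, 11.89, 11.29 and 11.27 in wild-type spleens 1 to 4 and 10.88, 9.29, 11.67, 11.14 and 11.55 in lymphomas 1 to 5 (log2 difference -0.61, SE 0.43, limma adjusted p 0.564). Lymphoma 2 lay far below every other array, and without lymphomas 1 and 2 the difference was -0.062. Siglecg, which restrains calcium signals in B-1 and other B cells, stood at 10.87, 11.13, 11.02 and 11.12 in wild-type spleens 1 to 4 and 9.79, 10.85, 11.003, 11.03 and 10.59 in lymphomas 1 to 5 (log2 difference -0.38, SE 0.23, limma adjusted p 0.495). Lymphomas 3 and 4 lay within the wild-type range.

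B-lineage genes are known for motifs of EBF1, octamer factors and PU.1 upstream of the start. That stretch is shown for 5 members whose groups did not overlap or that differed most, and whose windows held such a motif. Btk, Ralgps2 and Vav2, whose groups also did not overlap, had matched windows without these motifs and are not shown. Cd37 (log2 difference -0.43) and Rasgrp3 (-0.45) held a PU.1 type motif but differed less than Cd72 and Fcrl1, and are not shown either. The 250 bases before the start (RefSeq, GRCm38.p6) were matched for 32 members, in 44 windows, and searched on both strands for 9 motifs, as were 32851 windows of all genes. No window was matched for Blk, Cd79b, Ikbkb, Lat2 and Nfatc1. The PU.1 type motif GAGGAAGT was in 8 member windows (18.2%, against 2.44% of all windows), those of Cd37, Cd72, Fcrl1, Grb2, Inpp5d, Pik3cg, Rasgrp3 and Vav1. The octamer ATGCAAAT was in 2 (4.55%, against 1.6% of all windows), Blnk and Prkcb, and the EBF type motif TCCCNNGGG in 2 (4.55%, against 5.6% of all windows), Cd22 and Traf6. The E-box CAGGTG, bound by E2A, was in 17 windows of 15 members (38.6%, against 17.2% of all windows). The boxes AGAGGAA and TTTCCTC were in 9 (20.5%, against 8.55% of all windows) and 8 (18.2%, against 7.61% of all windows). Both share letters with the PU.1 type motif or its reverse complement. The E-box GCCACGTG was in 2 (4.55%, against 0.953% of all windows), TATAAA in 7 (15.9%, against 12.4% of all windows) and the kB type motif GGGACTTTC in 0 (all windows: 0.289%). These are matches of letters, not shown sites of binding.

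Capitals mark the EBF type motif in Cd22 (chr7:30879029-30879278, minus strand), the octamer in Blnk (chr19:40994222-40994471, minus strand) and Prkcb (chr7:122288875-122289124, plus strand), and the PU.1 type motif in Cd72 (chr4:43454627-43454876, minus strand) and Fcrl1 (chr3:87376137-87376386, plus strand), each read 5′ to 3′ on the gene's strand.
Cd22: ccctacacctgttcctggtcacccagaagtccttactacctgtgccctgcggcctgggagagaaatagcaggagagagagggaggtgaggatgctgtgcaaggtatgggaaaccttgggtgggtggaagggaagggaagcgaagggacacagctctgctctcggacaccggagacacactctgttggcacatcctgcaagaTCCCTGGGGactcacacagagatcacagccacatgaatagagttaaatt
Blnk: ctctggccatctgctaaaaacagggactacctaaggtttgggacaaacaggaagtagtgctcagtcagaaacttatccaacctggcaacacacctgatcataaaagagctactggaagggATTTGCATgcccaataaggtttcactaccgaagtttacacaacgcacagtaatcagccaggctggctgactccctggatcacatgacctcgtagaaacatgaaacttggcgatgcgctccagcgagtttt
Prkcb: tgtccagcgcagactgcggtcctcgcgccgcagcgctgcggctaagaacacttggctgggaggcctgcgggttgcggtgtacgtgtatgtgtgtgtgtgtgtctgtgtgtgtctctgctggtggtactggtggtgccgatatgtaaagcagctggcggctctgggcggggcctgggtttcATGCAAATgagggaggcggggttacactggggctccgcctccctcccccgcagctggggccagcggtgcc
Cd72: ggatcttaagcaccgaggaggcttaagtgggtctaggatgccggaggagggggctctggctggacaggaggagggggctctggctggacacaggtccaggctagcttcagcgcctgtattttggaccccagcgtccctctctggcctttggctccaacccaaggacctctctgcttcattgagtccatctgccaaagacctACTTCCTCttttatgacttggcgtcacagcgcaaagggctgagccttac
Fcrl1: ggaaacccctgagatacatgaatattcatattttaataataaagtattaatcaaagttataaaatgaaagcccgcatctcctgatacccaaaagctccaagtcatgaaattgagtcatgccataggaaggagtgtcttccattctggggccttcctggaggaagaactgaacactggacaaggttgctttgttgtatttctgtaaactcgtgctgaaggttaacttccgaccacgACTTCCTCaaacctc

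The motif starts 49 bases before the start in Cd22, 130 in Blnk, 70 in Prkcb, 49 in Cd72 and 15 in Fcrl1. In Blnk, Cd72 and Fcrl1 it is printed as its reverse complement. The 5 windows, all with a motif, were chosen after the values were seen, and no test was made on them.

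Of the kinases, Btk had the smallest p-value of all members. Btk, the Tec-family kinase that activates phospholipase C gamma 2, stood at 11.11, 11.17, 11.12 and 11.09 in wild-type spleens 1 to 4 and 10.48, 10.60, 10.90, 10.82 and 10.72 in lymphomas 1 to 5 (log2 difference -0.42, SE 0.093, limma adjusted p 0.0864, unadjusted p 0.00127). Every lymphoma lay below every wild-type spleen, and the mean level was 1.34-fold lower. With any 1 array left out the difference stayed between -0.47 and -0.36. With array weights limma called it (-0.36, limma adjusted p 0.0328), in a fit whose share of all genes called is not given here. Blk, a Src-family kinase of B cells, stood at 12.72, 12.62, 12.62 and 12.78 in wild-type spleens 1 to 4 and 11.15, 12.79, 12.47, 12.29 and 12.003 in lymphomas 1 to 5 (log2 difference -0.54, SE 0.28, limma adjusted p 0.413). Lymphoma 2 held the highest of the 9 values and lymphoma 1 the lowest by a wide margin. Syk, the kinase that docks on the receptor chains, stood at 12.98, 12.97, 12.88 and 13.005 in wild-type spleens 1 to 4 and 12.66, 12.98, 12.85, 12.84 and 12.83 in lymphomas 1 to 5 (log2 difference -0.12, SE 0.077, limma adjusted p 0.497), with lymphoma 1 the lowest and lymphoma 2 inside the wild-type range. Its other 3 probe sets gave log2 differences of -0.011, 0.24 and 0.45, the last highest in lymphoma 2.

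The adaptors varied in how they were spread. Blnk, which joins SYK to BTK and the lipase, stood at 11.95, 11.97, 11.96 and 11.96 in wild-type spleens 1 to 4 and 10.81, 11.70, 11.81, 11.90 and 11.78 in lymphomas 1 to 5 (log2 difference -0.36, SE 0.20, limma adjusted p 0.455). The wild-type values were nearly identical (SD 0.00789, n = 4) and all lymphomas lay below them, with lymphoma 1 far under the rest. Pik3ap1 (BCAP), which brings PI3-kinase to the receptor complex, stood at 11.89, 12.08, 9.71 and 9.56 in wild-type spleens 1 to 4 and 11.41, 9.24, 11.82, 12.33 and 11.90 in lymphomas 1 to 5 (log2 difference 0.53, SE 0.74, limma adjusted p 0.785). Wild-type spleens 3 and 4 and lymphoma 2 lay under 10 and the other 6 arrays above 11, so the split ran through both groups, and the second, dimmer probe set 1421285_at did not show it, with values between 7.26 and 7.75 and a log2 difference of -0.17. Dapp1, an adaptor that binds PI3-kinase lipids, had a log2 difference of -0.28 (SE 0.11, limma adjusted p 0.273), with 0.18 on its dimmer probe set. Bank1, a B-cell scaffold, and Lat2, a membrane adaptor of B and myeloid cells, had log2 differences of -0.32 and -0.38, and of -0.12 and -0.22 without lymphoma 1. Grb2, a widely used adaptor towards RAS, had a log2 difference of -0.090, and of 0.021 on its other probe set.

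The lipid enzymes did not share a direction. Plcg2, the lipase that starts calcium release, stood at 12.04, 12.04, 11.93 and 12.05 in wild-type spleens 1 to 4 and 11.69, 12.02, 11.95, 11.84 and 12.10 in lymphomas 1 to 5 (log2 difference -0.096, SE 0.092, limma adjusted p 0.674), with overlapping groups. Inpp5d, the lipid phosphatase SHIP-1, stood at 11.92, 11.61, 11.59 and 12.09 in wild-type spleens 1 to 4 and 11.82, 11.66, 11.69, 11.90 and 12.03 in lymphomas 1 to 5 (log2 difference 0.020, SE 0.13, limma adjusted p 0.961). These lymphoma values lay wholly inside the wild-type range. Pik3cd, the catalytic PI3-kinase subunit of lymphocytes, had 6 probe sets: the one used for the gene stood at 10.78, 11.07, 10.93 and 10.72 in wild-type spleens 1 to 4 and 10.07, 9.95, 10.83, 10.74 and 10.62 in lymphomas 1 to 5 (log2 difference -0.43, SE 0.19, limma adjusted p 0.341), and 1443798_at stood at 9.73, 9.85, 9.98 and 10.19 in wild-type spleens 1 to 4 and 10.24, 10.27, 9.94, 10.72 and 10.31 in lymphomas 1 to 5 (log2 difference 0.36, limma adjusted p 0.336 over all probe sets). The first was lowest in lymphomas 1 and 2 and the second highest in lymphoma 4. The other 4 had log2 differences of -0.45, -0.33, -0.30 and 0.039. Pik3cg, the subunit driven by G-protein-coupled receptors, stood at 9.77, 9.46, 10.34 and 10.33 in wild-type spleens 1 to 4 and 10.19, 9.97, 9.94, 11.09 and 10.53 in lymphomas 1 to 5 on the probe set used for it (log2 difference 0.37, SE 0.27, limma adjusted p 0.572). Its other probe set, 1422708_at, stood at 9.26, 9.27, 9.06 and 8.98 in wild-type spleens 1 to 4 and 8.46, 7.78, 9.12, 8.73 and 9.54 in lymphomas 1 to 5 (log2 difference -0.41, limma adjusted p 0.579 over all probe sets). The first was highest in lymphoma 4 and the second lowest in lymphoma 2 and highest in lymphoma 5, and the groups overlapped on both. Pik3r1, the regulatory subunit p85 alpha, had a log2 difference of -0.27 (limma adjusted p 0.35).

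All 5 exchange factors had lower means in lymphoma, among them the most negative difference of any member. Ralgps2, an exchange factor for RAL GTPases, stood at 12.44, 12.62, 12.43 and 12.56 in wild-type spleens 1 to 4 and 11.25, 11.60, 12.35, 12.12 and 11.96 in lymphomas 1 to 5 (log2 difference -0.66, SE 0.20, limma adjusted p 0.181). The groups did not overlap, lymphoma 1 was lowest and lymphoma 3 nearest to the wild-type spleens. All 3 of its probe sets had lower means, with log2 differences of -0.66, -0.67 and -0.88, the last with a limma adjusted p of 0.104 over all probe sets. Without lymphomas 1 and 2 limma called the last (-0.59, limma adjusted p 0.0342). That fit called 3.30% of all genes, against 0.715% with all arrays. Its share of all probe sets is not given here. Rasgrp3, which loads RAS under diacylglycerol, stood at 12.20, 12.27, 12.20 and 12.09 in wild-type spleens 1 to 4 and 11.20, 11.69, 12.13, 11.74 and 11.93 in lymphomas 1 to 5 (log2 difference -0.45, SE 0.16, limma adjusted p 0.25). Only lymphoma 3 reached the wild-type range, and the second probe set gave a log2 difference of -0.017. Vav2, an exchange factor that acts on the cytoskeleton, stood at 9.77, 9.91, 9.95 and 9.91 in wild-type spleens 1 to 4 and 9.23, 9.64, 9.75, 9.62 and 9.72 in lymphomas 1 to 5 (log2 difference -0.30, SE 0.11, limma adjusted p 0.261), with no overlap. Its other 2 probe sets gave log2 differences of -0.26 and 0.012. Its relative Vav1 had log2 differences of -0.041 and, on its other probe set, 0.15. Sos1, an exchange factor for RAS, had a log2 difference of -0.088, with a level of 11.19 in lymphoma 2 above every other array. Of its other 4 probe sets 3 had higher means in lymphoma (0.24, 0.16 and 0.070) and 1 a lower one (-0.18).

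The 2 phosphatases named as receptor regulators were both lower on average. Ptpn6 (SHP-1), which inhibitory receptors recruit, stood at 12.71, 12.75, 12.55 and 12.47 in wild-type spleens 1 to 4 and 11.51, 12.32, 12.63, 12.75 and 12.56 in lymphomas 1 to 5 (log2 difference -0.27, SE 0.23, limma adjusted p 0.634). Lymphoma 1 lay a wide step below the rest, lymphomas 3 to 5 lay among the wild-type values, and without lymphoma 1 the difference was -0.055. With the B-cell mean as a covariate Ptpn6 had the smallest p of the members in that fit (log2 difference 0.47, unadjusted p 0.000493, limma adjusted p 0.13). Ptprc (CD45), which activates Src-family kinases and marks all white blood cells, had a log2 difference of -0.25 (SE 0.094, limma adjusted p 0.268). Its second probe set, 1440165_at, stood at 12.41, 12.52, 12.35 and 12.30 in wild-type spleens 1 to 4 and 11.02, 10.79, 12.24, 11.91 and 11.75 in lymphomas 1 to 5 (log2 difference -0.86, limma adjusted p 0.212 over all probe sets), with no overlap.

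In the branch to NF-kB, Prkcb and Ikbkb were lower without overlap on the probe set used for each gene. Prkcb, the protein kinase C beta that diacylglycerol activates, stood at 12.53, 12.61, 12.52 and 12.48 in wild-type spleens 1 to 4 and 11.71, 12.41, 12.45, 12.12 and 12.002 in lymphomas 1 to 5 (log2 difference -0.39, SE 0.15, limma adjusted p 0.257). Lymphomas 2 and 3 lay just under the wild-type spleens and lymphoma 1 far under them. A dimmer probe set of Prkcb, 1443144_at, stood at 8.79, 8.80, 8.86 and 8.78 in wild-type spleens 1 to 4 and 7.74, 8.37, 8.33, 8.36 and 8.33 in lymphomas 1 to 5 (log2 difference -0.58, SE 0.13, limma adjusted p 0.101 over all probe sets). Its groups did not overlap, and lymphomas 2 to 5 stood close together. Limma called it without lymphoma 1 (-0.46, limma adjusted p 0.0291) and with array weights (-0.52, limma adjusted p 0.0233). The share of all probe sets called in these fits is not given here. On the remaining Prkcb probe set, 1423478_at, the log2 difference was -0.27 (limma adjusted p 0.593 over all probe sets). There the groups overlapped, with lymphomas 2 and 3 (11.21 and 11.07) above every wild-type spleen. Ikbkb, the kinase IKK beta that releases NF-kB, stood at 12.29, 12.46, 12.37 and 12.37 in wild-type spleens 1 to 4 and 11.52, 11.82, 12.27, 12.21 and 12.03 in lymphomas 1 to 5 (log2 difference -0.40, SE 0.15, limma adjusted p 0.252). All 5 of its probe sets had lower means (from -0.41 to -0.10), but the groups overlapped on all except the one used for the gene. Traf6, a ubiquitin ligase, and Tab2, which binds ubiquitin chains, had log2 differences of -0.076 and -0.17, with limma adjusted p of 0.738 and 0.433. Map3k7, the kinase TAK1, had the same mean in both groups to 3 digits (8.92 in wild-type spleens, SD 0.38, n = 4, and 8.92 in lymphomas, SD 0.22, n = 5), with an SE of 0.18 on the difference. Its values, 9.12, 9.36, 8.61 and 8.61 in wild-type spleens 1 to 4 and 8.79, 8.61, 9.13, 9.01 and 9.08 in lymphomas 1 to 5, were lowest in wild-type spleens 3 and 4 and lymphoma 2, the same 3 arrays that were low for Pik3ap1. Its other 5 probe sets did not share that order, and 1426627_at was highest in these 3 arrays. Their log2 differences ran from -0.21 to 0.068.

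The NFAT factors, which calcium activates, had higher means. Nfatc1 stood at 10.74, 10.36, 10.44 and 10.64 in wild-type spleens 1 to 4 and 10.55, 12.09, 11.49, 11.28 and 10.73 in lymphomas 1 to 5 (log2 difference 0.68, SE 0.28, limma adjusted p 0.303, unadjusted p 0.0376). Lymphomas 2, 3 and 4 lay above the wild-type range and lymphomas 1 and 5 within it. Without lymphoma 1 the difference was 0.85 (limma adjusted p 0.181). The 5 probe sets of Nfatc1 disagreed: 4 were higher by 0.68, 0.54, 0.39 and 0.36, each with its highest value in lymphoma 2, and 1428479_at stood at 11.04, 11.17, 11.07 and 11.19 in wild-type spleens 1 to 4 and 9.93, 10.41, 11.28, 10.91 and 10.84 in lymphomas 1 to 5 (log2 difference -0.44). That probe set had the higher mean in wild-type spleens, 11.1 against 10.5, so the choice of the probe set for the gene rests on the lymphoma values. The sources used here do not say which transcript each probe set reads. Nfatc2 had a log2 difference of 0.15 (limma adjusted p 0.736), was highest in lymphoma 5, and had a difference of 0.38 without lymphomas 1 and 2 (unadjusted p 0.0117, limma adjusted p 0.136). Of its other 5 probe sets 3 had higher means in lymphoma (0.18, 0.17 and 0.091) and 2 lower ones (-0.022 and -0.00422).

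**Figure D5:**
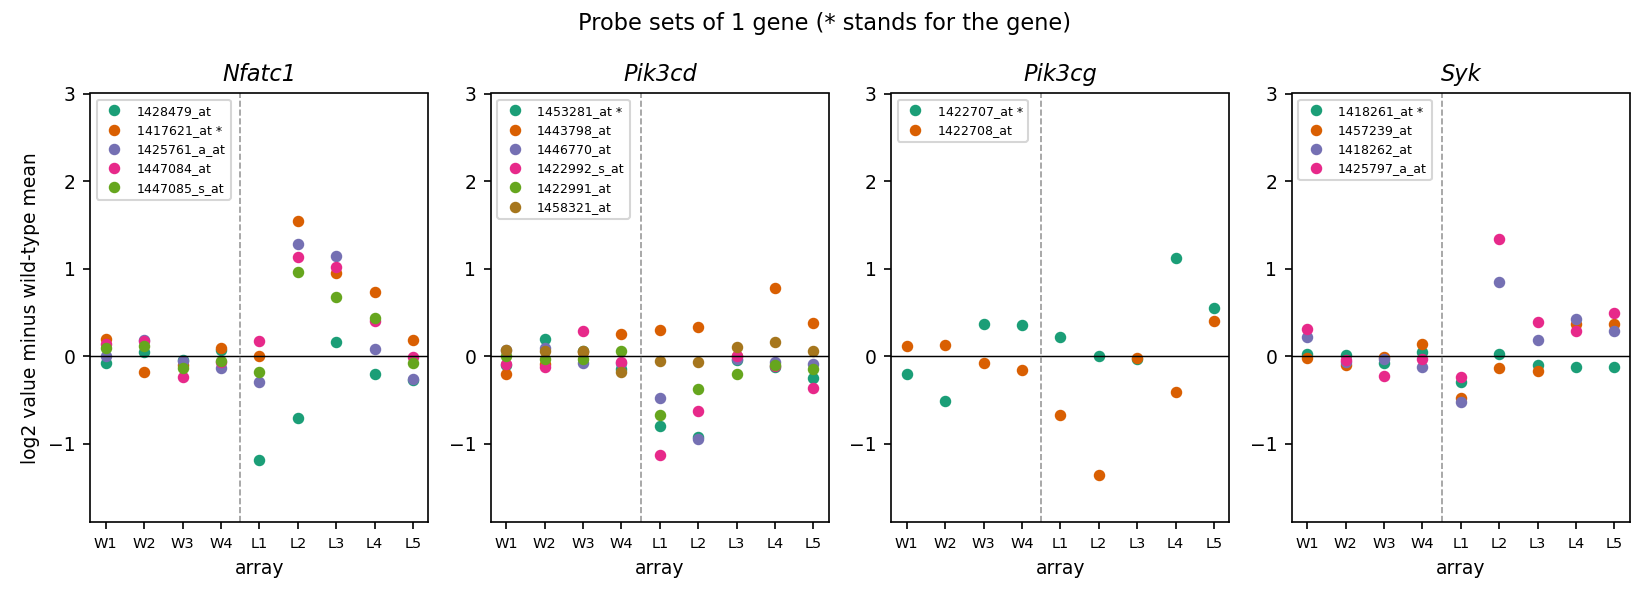
Log2 value minus the wild-type mean (y axis) of every probe set of Nfatc1, Pik3cd, Pik3cg and Syk on the 9 arrays (x axis, W wild-type, L lymphoma); an asterisk marks the probe set used for the gene. For Nfatc1, 4 probe sets are high in lymphomas 2 and 3 while 1428479_at is low in lymphomas 1 and 2.

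Over the members' 97 probe sets, 71 were below 0 and 26 above (all probe sets: 52.8% and 47.2%). Limma called 0 of them (all probe sets: 0.486%), with 18 lower and 4 higher at an unadjusted p under 0.05 (all probe sets: 8.76% and 5.15%). The groups did not overlap for 12 of them, all lower, from Blnk, Btk, Cd22, Ikbkb, Pik3cd, Prkcb, Ptprc, Ralgps2 and Vav2 (all probe sets: 4.08% lower and 2.39% higher). Of the 27 members with more than 1 probe set, 12 had probe sets on both sides of 0, and for Nfatc1, Pik3cd and Pik3cg the sides lay more than 0.3 from 0.

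Activating members were set against inhibitory ones. The 5 inhibitory members (Cd22, Cd72, Siglecg, Ptpn6 and Inpp5d) had a median log2 difference of -0.38, with 4 below 0, and the 27 activating ones -0.17, with 22 below 0. Cd37, Fcrla, Bank1, Lat2 and Ralgps2 were given no side and had a median of -0.43. Limma called 0 on each side, and at an unadjusted p under 0.05 lymphoma was lower for 1 inhibitory and 7 activating members and higher for 2 activating ones (all genes: 0.715% called, 8.0% lower and 6.69% higher). By array, the inhibitory median stood at -1.11, -0.30, -0.032, -0.00911 and -0.060 in lymphomas 1 to 5 and the activating median at -0.37, -0.25, -0.058, -0.16 and -0.17. The activating median was the higher one in lymphomas 1 and 2 and the lower one in lymphomas 3 to 5. Without lymphoma 1 the medians were -0.17 (inhibitory) and -0.13 (activating), and without lymphomas 1 and 2 they were -0.062 and -0.14, in the opposite order. Taken in each array as the activating minus the inhibitory median, the gap had a mean of -0.043 (SD 0.060, n = 4) in wild-type spleens and 0.100 (SD 0.36, n = 5) in lymphomas. Lymphoma 1 alone stood at 0.73, and without it the lymphoma mean was -0.059 (SD 0.092, n = 4).

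By breadth of expression, the 11 B-lineage members were all below 0, with a median of -0.44. The 17 members expressed across blood cells had a median of -0.25 with 12 below 0, and the 9 widespread ones -0.090 with 8 below 0. Without lymphomas 1 and 2 the medians of the 3 sets were -0.14, -0.12 and -0.19. The inhibitory and activating sides differed in breadth. Of the 5 inhibitory members Cd22, Cd72 and Siglecg are B-lineage ones, and of the 27 activating members Cd79a, Cd79b, Fcrl1, Blk and Blnk. The part of breadth in the gap between the medians of the sides was not tested.

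Other genes of the pathway leaned the same way. Of 42 measured outside the set, 33 were below 0 (78.6%, against 49.7% of all genes) and limma called 0 (all genes: 0.715%). At an unadjusted p under 0.05 by limma's test, 10 were lower (23.8%, against 8.0% of all genes) and 1 higher (2.38%, against 6.69%). Their median log2 difference was -0.16. Like the members, this list was chosen with earlier results of these data known. The largest log2 differences were those of Cr2 (-1.25, limma adjusted p 0.113), a complement receptor of B cells, Dgka (-0.75), which removes diacylglycerol, Pag1 (-0.72), a membrane anchor of the kinase CSK, and Tec (-0.66), a relative of Btk. Cr2 stood at 13.13, 13.26, 13.21 and 13.27 in wild-type spleens 1 to 4 and 10.73, 12.06, 12.44, 12.34 and 12.29 in lymphomas 1 to 5, with no overlap. Limma called it without lymphoma 1 (-0.94, limma adjusted p 0.0107), in a fit that called 0.901% of all genes. Cr2 is also 1 of the 7 B-cell markers. The most positive difference was that of Fcgr2b, an inhibitory gene (0.47, limma adjusted p 0.411). Of the 15 inhibitory genes on the list 11 were below 0 and 4 above. Malt1 and Bcl10, which carry the signal below Prkcb, had log2 differences of -0.59 and -0.11 (limma adjusted p 0.133 and 0.71). Without lymphomas 1 and 2 limma called Malt1 (-0.55, limma adjusted p 0.0447), in a fit that called 3.30% of all genes. The sources used here do not say whether the Malt1 probe sets read the transgene.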

How the data were processed

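Frozen spleen tissue gave total RNA, which was labelled with biotin for hybridisation to Affymetrix arrays, per the labels. The deposited values are log2 expression made by the authors with RMA, per the submitters' processing notes, which the sources used here describe no further. Array medians were within 6.88 to 6.97, and no further normalization was applied. Of 45101 probe sets, 64 controls were left out; 34958 had 1 gene symbol in the platform annotation, 932 several and 9211 none. The groups were compared with limma 3.58.1 (R 4.3.3, two-sided, no covariate) over 18193 genes with 1 probe set each, and over 45037 probe sets, with Benjamini-Hochberg adjustment, after the code was tested on made-up data of known answers. The members and lists were chosen with earlier results of these data known, so no set of members was tested.

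Every array's value is given for members whose groups do not overlap, the 10 largest differences, the receptor chains, the inhibitory members, Syk, Btk, Plcg2, Blnk, Blk and Prkcb, and probe sets of a gene with opposite signs past 0.3. Of the other pathway genes, those called, the 4 largest differences, Malt1 and Bcl10 are named. Cd81, Map3k7, Fcgr2b, Rel, the B-cell markers without their 2 largest differences and single probe sets of Prkcb and Ptprc were added after their values were seen. Alternatives changed the filter on dim probe sets, normalization, variance prior, array weights, covariates, probe set choice, replicate block and arrays used. Few arrays limit the precision.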

Additional observations from a re-analysis of the deposited data

Results flagged for a closer look

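In 6 of 74 groups of arrays (2 for each of the 37 members) 1 array stood apart from the others by Dixon's criterion at the 95% level, and chance flags about 1 in 20 such groups. Lymphoma 1 was the low array for Cd79b (12.24, next lowest lymphoma 13.25), Blnk (10.81, next 11.70) and Vav2 (9.232, next 9.62). Without it the log2 differences were -0.13, -0.16 and -0.21. Among wild-type spleens the low array was number 3 for Plcg2 (11.93, next 12.04) and number 4 for Bank1 (12.99, next 13.14) and Tab2 (11.91, next 12.02).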

How the results depend on the processing

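No member was called in any of the other settings tried except with array weights, which called 1 (Btk, -0.36). Those weights also called 2 member probe sets (Btk and Prkcb) and 2 other pathway genes (Cr2 and Rel). The share of all genes called with array weights or without lymphoma 2 is not given here. Neither is the share of all probe sets called in the settings below, so these calls cannot be set against it. Member probe sets called were 2 without lymphomas 1 and 2 together (Prkcb and Ralgps2), 1 without lymphomas 3 and 5 together (Fcrl1), and 0 to 1 with 1 array left out (Prkcb without lymphoma 1, Fcrl1 without lymphoma 5). Other pathway genes called were 3 without lymphomas 1 and 2 (Cr2, Malt1 and Fcgr2b), where 3.30% of all genes were called. With 1 array left out they were 0 to 1: Cr2 without lymphoma 1 (all genes: 0.901%) and Fcgr2b without lymphoma 2. Fcgr2b was higher without lymphomas 1 and 2 (0.78, limma adjusted p 0.0100) and without lymphoma 2 (0.69, limma adjusted p 0.0332). With all arrays its log2 difference was 0.47 (limma adjusted p 0.411). Cr2 and Malt1 were lower in the fits that called them. The 9 members lower at an unadjusted p under 0.05 became 0 with the B-cell marker covariate (all genes lower in that fit: 6.04%), 2 with the erythroid covariate (6.78%) and 15 without lymphomas 3 and 5 (8.96%), and were 2 to 12 with 1 array left out (5.06% to 9.33%), fewest without wild-type spleen 2. The activating and inhibitory medians were 0.061 and 0.089 with the B-cell covariate, and -0.22 to -0.13 and -0.47 to -0.17 with 1 array left out. Members that changed sign with the B-cell covariate were Bank1 0.29, Blk 0.11, Blnk 0.27, Cd22 0.089, Cd37 0.084, Cd79a 0.28, Cd79b 0.33, Fcrl1 0.19, Fcrla 0.098, Grb2 0.11, Ikbkb 0.021, Lat2 0.090, Map3k7 0.27, Pik3cd 0.031, Plcg2 0.061, Ptpn6 0.47, Rasgrp3 0.014, Siglecg 0.29, Vav1 0.13. The erythroid covariate turned Map3k7 0.094, Vav1 0.060. Averaging all probe sets of a gene turned Pik3cg -0.022, Sos1 0.039, Syk 0.14, Vav1 0.054, leaving out probe sets with an a, s or x suffix (34 members fitted) Vav1 0.15, array weights Vav1 0.00168 and a second quantile normalization Map3k7 0.023. Leaving out lymphomas 1 and 2 turned Map3k7 0.15, Ptpn6 0.027, Vav1 0.071, and lymphomas 3 and 5 Inpp5d -0.00677, Nfatc2 -0.00807, Sos1 0.094. With 1 array left out the ranges of members that changed sign were Cd79a -0.26 to 0.11, Inpp5d -0.050 to 0.12, Map3k7 -0.11 to 0.15, Sos1 -0.31 to 0.038, Vav1 -0.085 to 0.00846. The cause of these changes was not tested.

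The replicate numbers did not pair the samples: same-numbered arrays had correlations of deviations from the group means of 0.12, -0.20, 0.14 and 0.00408, and 1 of 4 wild-type arrays correlated best with its own number. With the replicate block as a random term limma called 0 members, with 10 lower at an unadjusted p under 0.05 (all genes lower: 8.19%). With the block as a fixed term over numbers 1 to 4 limma called 0, with 8 lower at that level (all genes lower: 6.21%). The fixed term turned Inpp5d -0.033, Sos1 0.038. The share of all genes called with either block term is not given here. A filter on dim probe sets kept all 37 members. The number of arrays and RMA's compression near the background limit what can be seen for dim probe sets.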
